A study of Mus musculus with 13 samples.

Results

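Hox cluster genes were the members of this set: the 39 gene symbols of the deposited table made of Hox, a cluster letter from a to d and a paralogue number, among 24015 gene rows. They comprised 11 Hoxa, 10 Hoxb, 9 Hoxc and 9 Hoxd genes. RNA was sequenced in 13 mouse libraries of haematopoietic stem cells (HSCs), with 100 donor-derived cells per library, from the bone marrow of recipients that had received a single HSC expressing Vwf, the gene of a clotting protein. Recipients were followed over 16 weeks and differed in the blood cells the transplanted clone made: multilineage (MUL-HSC, 4 libraries), PEM-restricted (PEM-HSC, 6 libraries) or P-restricted (PLT-HSC, 3 libraries). The mice were C57BL/6, and every group shared 1 sort, LSKFlt3-CD150+CD48-CD45.2+Gata1-, so Gata1-positive cells were left out of all 3 groups. No age or genotype of donors and recipients was given in the labels used here. Whether libraries of a group stem from different recipients is not stated in the labels. The p-values therefore measure the spread between libraries alone, and part of it may be technical.

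Hox genes encode homeodomain transcription factors and lie in 4 clusters, where a gene's position along the cluster matches the order in which it is used along the body axis. Genes of the same paralogue number in different clusters descend from 1 ancestral gene. In blood, stem and progenitor cells use Hoxa and Hoxb genes of the 3′ and central parts of the clusters and switch them off as they mature. Hox proteins bind DNA together with PBX and MEIS proteins, and their genes are kept on by MLL-type trithorax complexes and kept off by Polycomb complexes.

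Library totals ran from 16371921 to 41367057 gene counts, and 11233 to 12310 genes had a count. A count of 3, used here as the floor, equalled 0.0725 to 0.183 CPM (counts for each 1000000 gene counts of the library). HSC marker genes were present in every library, with a summed level of 1730 to 3130 CPM without Hoxb5. Of the markers of other cells, the 5 T cell markers were at 0 in all libraries, 10 stromal markers summed to 0 to 6.67 CPM and 8 granulocyte markers to 0 to 17.8 CPM. Megakaryocyte and platelet markers, led by Pf4 and Gp9, summed to 88.0 to 319 CPM over the libraries, and Cd79b of B cells was at 90.5 to 184 CPM, with overlapping groups. Endothelial markers, nearly all Emcn with Cdh5 at 0, summed to 54.3 to 171 CPM in MUL-HSC, 5.89 to 86.8 CPM in PEM-HSC and 39.5 to 85.4 CPM in PLT-HSC. Markers of macrophages, mostly Cd68, summed to 19.9 to 26.9 CPM in MUL-HSC, 51.1 to 306 CPM in PEM-HSC and 51.9 to 209 CPM in PLT-HSC, and the part of these markers in the results was not tested. In all, 3 libraries stood apart in the Hox genes themselves: PEM-HSC replicate 2, which had little RNA of most Hoxa genes, and MUL-HSC replicates 1 and 2, which had little RNA of most Hoxb genes. They are described below and results are given with and without them.

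The Hox RNA of these cells came almost wholly from clusters a and b. Over all libraries Hoxa genes held 73841 counts, Hoxb genes 42630, Hoxc genes 401 and Hoxd genes 2. Per library, Hox RNA summed to 195 to 411 CPM in MUL-HSC, 211 to 378 CPM in PEM-HSC and 288 to 463 CPM in PLT-HSC, so the 3 groups overlapped. In bulk libraries fewer cells that use a gene and less RNA per cell cannot be told apart. Of the 39 genes, 8 had a mean of at least 10 CPM over the 13 libraries: Hoxa5, Hoxa7, Hoxa9, Hoxa10, Hoxb2, Hoxb3, Hoxb5 and Hoxb6. A further 15 had some count but a lower mean, and 16 had no count in any library. Of the 12 genes of paralogue number 10 or higher, which pattern the hindmost body, 10 were among those 16.

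**Figure D1:**
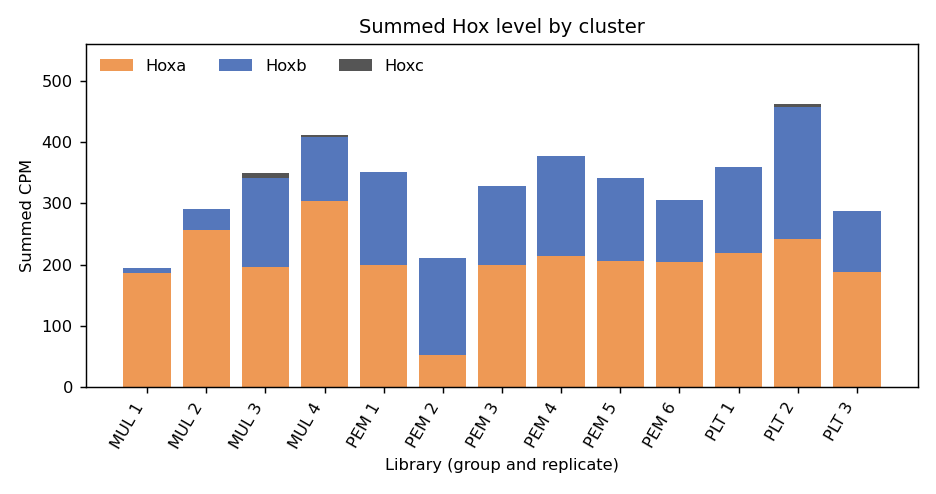
Summed level of Hoxa (orange), Hoxb (blue) and Hoxc (dark grey) genes in CPM (y axis) in each of the 13 libraries (x axis, group and replicate), stacked; Hoxd genes summed to at most 0.0678 CPM and are not visible. PEM-HSC replicate 2 has the shortest Hoxa part (52.7 CPM) and MUL-HSC replicates 1 and 2 have the shortest Hoxb parts (8.52 and 33.3 CPM).

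In the Hoxa cluster, Hoxa9 had the highest level. Hoxa9 encodes a factor that HSCs need for full repopulating activity and that is overexpressed in many acute leukaemias. Its level in the 4 MUL-HSC libraries was 83.8, 142, 121 and 161 CPM. In PLT-HSC it was 107, 117 and 98.9 CPM. In the 6 PEM-HSC libraries it ran from 10.1 CPM to 108 CPM with a median of 95.7 CPM. All libraries but PEM-HSC replicate 2 lay between 83.8 and 161 CPM, and the ranges of the 3 groups overlapped. Hoxa10, its 5′ neighbour and a regulator of myeloid and megakaryocytic progenitors, was found at 82.7, 65.4, 24.7 and 81.0 CPM in MUL-HSC. It was at 27.6 to 58.2 CPM (median 51.7) in PEM-HSC, and at 69.2, 45.8 and 19.0 CPM in PLT-HSC. Hoxa10 was therefore low in MUL-HSC replicate 3 and PLT-HSC replicate 3, with all PEM-HSC values inside the MUL-HSC range.

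Hoxa7 and Hoxa5, central genes of the cluster that are also used by leukaemias with MLL fusions, came next. Hoxa7 was at 13.2, 34.3, 30.2 and 32.7 CPM in MUL-HSC, 1.05 to 43.8 CPM (median 30.9) in PEM-HSC, and in PLT-HSC at 27.6, 37.4 and 26.5 CPM. Again PEM-HSC replicate 2 was the lowest of the 13. Hoxa5 was more uneven, at 3.33, 9.38, 16.4 and 17.6 CPM in MUL-HSC, 0 to 37.1 CPM (median 5.69) in PEM-HSC, and in PLT-HSC at 13.2, 24.4 and 28.9 CPM. Its highest value belonged to PEM-HSC replicate 5 and its lowest to PEM-HSC replicate 2.

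The remaining Hoxa genes described here were low. Hoxa3 was found in 12 libraries at up to 8.88 CPM, Hoxa2 in 9 at up to 12.1 CPM and Hoxa4 in 5 at up to 3.84 CPM. Hoxa2 passed 10 CPM in 1 library, PEM-HSC replicate 5. Hoxa6 had a count in 2 libraries (at most 1.34 CPM). Hoxa11 and Hoxa13, at the 5′ end, had no count, whereas each gene from Hoxa2 to Hoxa10 was found in at least 2 libraries.

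The promoter windows of Hoxa7, Hoxa9 and Hoxa10 are shown because these neighbours parted in PEM-HSC replicate 2, and that of Hoxb8 because it was the 1 member whose levels did not overlap between 2 groups. They are from RefSeq on GRCm38.p6, 300 bases from 250 before to 50 after the annotated start, on the gene's own strand and 5′ to 3′; the build named for the counts is mm9, so the windows show the reference and not reads. Capitals mark the letters of 3 motifs searched on both strands: TGATTNAT, bound by PBX-HOX pairs, the TATA box letters TATAAA, and the CCAAT box. Hoxa10 has 2 annotated starts, of which the first printed lies nearer to Hoxa9.
Hoxa7, chr6:52218524-52218823, minus strand: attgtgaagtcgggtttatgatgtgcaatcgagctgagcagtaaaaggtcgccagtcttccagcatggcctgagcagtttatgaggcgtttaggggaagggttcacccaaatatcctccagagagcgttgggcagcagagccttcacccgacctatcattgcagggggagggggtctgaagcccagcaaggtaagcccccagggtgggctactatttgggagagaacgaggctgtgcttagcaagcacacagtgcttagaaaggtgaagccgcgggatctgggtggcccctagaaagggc
Hoxa9, chr6:52227321-52227620, minus strand: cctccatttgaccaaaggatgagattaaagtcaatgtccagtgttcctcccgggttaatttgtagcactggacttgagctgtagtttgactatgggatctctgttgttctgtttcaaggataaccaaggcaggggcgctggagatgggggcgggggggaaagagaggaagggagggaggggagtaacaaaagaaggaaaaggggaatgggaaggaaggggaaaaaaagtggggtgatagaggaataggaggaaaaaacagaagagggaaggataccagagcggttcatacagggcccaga
Hoxa10, chr6:52234890-52235189, minus strand: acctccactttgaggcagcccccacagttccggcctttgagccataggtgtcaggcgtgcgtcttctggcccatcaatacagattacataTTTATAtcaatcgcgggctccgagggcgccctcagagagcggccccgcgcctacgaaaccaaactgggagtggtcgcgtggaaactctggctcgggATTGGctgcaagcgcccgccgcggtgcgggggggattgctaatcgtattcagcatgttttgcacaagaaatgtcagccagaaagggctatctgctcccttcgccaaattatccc
Hoxa10, chr6:52240805-52241104, minus strand: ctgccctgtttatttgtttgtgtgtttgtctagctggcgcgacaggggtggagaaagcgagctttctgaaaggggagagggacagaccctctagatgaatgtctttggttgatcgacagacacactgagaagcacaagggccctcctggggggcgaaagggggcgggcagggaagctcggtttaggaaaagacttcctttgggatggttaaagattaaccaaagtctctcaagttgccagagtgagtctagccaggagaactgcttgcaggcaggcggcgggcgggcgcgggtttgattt
Hoxb8, chr11:96281655-96281954, plus strand: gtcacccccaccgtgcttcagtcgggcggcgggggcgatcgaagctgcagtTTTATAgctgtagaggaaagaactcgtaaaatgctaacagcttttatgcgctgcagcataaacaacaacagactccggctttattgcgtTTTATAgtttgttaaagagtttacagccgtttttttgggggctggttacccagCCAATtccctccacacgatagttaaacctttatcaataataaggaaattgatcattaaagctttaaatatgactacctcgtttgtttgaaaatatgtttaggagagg
The 2 most abundant neighbours differed in these letters: the Hoxa9 window held none of the 3 motifs and 4 CG dinucleotides, whereas the nearer Hoxa10 window held 1 TATAAA match, 1 CCAAT match and 21 CG dinucleotides. The Hoxa7 window and the other Hoxa10 window also held none of the 3 motifs, with 9 and 12 CG dinucleotides. The Hoxb8 window held 13 CG dinucleotides, 2 TATAAA matches and 1 CCAAT match. RefSeq windows matched 22 of the 39 members (24 windows), whose median was 14.5 CG dinucleotides against 7 over all 32851 windows. TGATTNAT was in 2 of the 24 Hox windows (Hoxa2 and Hoxd11) and 3.22% of all windows, TATAAA in 4 and 13.6%, and CCAAT in 15 and 37.4%. A match describes letters of the reference only.

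The Hoxa cluster also carries noncoding genes, and 2 of them had RNA in most libraries. Mira, a noncoding transcript between Hoxa6 and Hoxa7, was at 4.59 to 27.6 CPM in MUL-HSC, 0 to 30.0 CPM in PEM-HSC and 8.17 to 41.6 CPM in PLT-HSC. Mir196b, the gene of miR-196b between Hoxa9 and Hoxa10, was at 0.746 to 3.82 CPM in all 13 libraries. These libraries held polyadenylated RNA, so the Mir196b row counts reads over its hairpin and not the mature miRNA. Its mature sequence is shown beside that of miR-196a, which has 1 gene in the Hoxb and 1 in the Hoxc cluster, because both share the seed (bases 2 to 8, in capitals) with which they pair to Hox transcripts such as that of Hoxb8.
miR-196b-5p, chr6:52230129-52230150, minus strand: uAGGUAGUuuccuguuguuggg
miR-196a-5p, chr11:96265187-96265208, plus strand: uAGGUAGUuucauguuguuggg
Both Mir196a rows had no count, as did Hotair, Hottip, Hoxd3os1, Mir10a, Mir10b and Mir615, so 8 of 11 noncoding rows were at 0. Hoxa11os, antisense to Hoxa11, had counts only in MUL-HSC replicate 1, at 4.06 CPM. The strand mode of the counting was not given in the sources used here, so antisense and overlapping transcripts of these packed clusters cannot be told apart from the coding genes.

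In the Hoxb cluster, Hoxb2 and Hoxb5 had the highest levels. Hoxb2, a gene of the 3′ part, was at 0, 21.4, 42.1 and 47.9 CPM in MUL-HSC, 31.9 to 55.9 CPM (median 45.7) in PEM-HSC, and in PLT-HSC at 37.8, 49.1 and 28.5 CPM. MUL-HSC replicates 1 and 2 were the lowest of the 13, and the other MUL-HSC libraries lay among those of the restricted groups. Hoxb5, whose RNA marks long-term HSCs in mouse marrow, was at 5.95, 5.79, 46.4 and 32.0 CPM in MUL-HSC, 20.2 to 57.3 CPM (median 37.7) in PEM-HSC, and in PLT-HSC at 42.3, 55.3 and 28.0 CPM. The same MUL-HSC libraries, replicates 1 and 2, were lowest for Hoxb5.

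Hoxb3 and Hoxb6 had lower means. Hoxb3, a neighbour of Hoxb4, was at 1.08, 5.02, 24.6 and 16.6 CPM in MUL-HSC, 4.63 to 26.7 CPM (median 14.2) in PEM-HSC, and in PLT-HSC at 8.37, 15.0 and 21.8 CPM. Hoxb6, a central gene of the cluster, was at 0, 0, 16.6 and 0.387 CPM in MUL-HSC, 4.45 to 24.1 CPM (median 13) in PEM-HSC, and in PLT-HSC at 10.8, 41.4 and 11.3 CPM. In Hoxb6 MUL-HSC replicate 3 alone kept the MUL-HSC range from lying below that of the restricted groups.

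Hoxb4, which expands HSCs when overexpressed, had over 3 counts in all 13 libraries but only 1.16 to 13.3 CPM. It passed 10 CPM in PEM-HSC replicate 4 (13.3) and PLT-HSC replicate 1 (11.6). Hoxb7, Hoxb8 and Hoxb9, at the 5′ end of the expressed stretch, were uneven. Hoxb7 passed 10 CPM in PEM-HSC replicates 2 (26.7) and 5 (15.1) and PLT-HSC replicate 2 (14.5), and had at most 2.75 CPM in MUL-HSC. Hoxb8, whose overexpression blocks myeloid differentiation, passed 10 CPM in PEM-HSC replicate 2 (14.6) and PLT-HSC replicate 2 (22.4), and had at most 1.83 CPM in MUL-HSC. Hoxb9 passed 10 CPM in PEM-HSC replicates 1 (13.6) and 5 (11.3) and PLT-HSC replicates 1 (14.6) and 2 (13.9), and had at most 4.95 CPM in MUL-HSC, where replicate 3 was the 1 library with counts of it. Hoxb1 had counts in PEM-HSC replicates 3 (5.20 CPM) and 5 (0.819 CPM), and Hoxb13 in none.

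**Figure D2:**
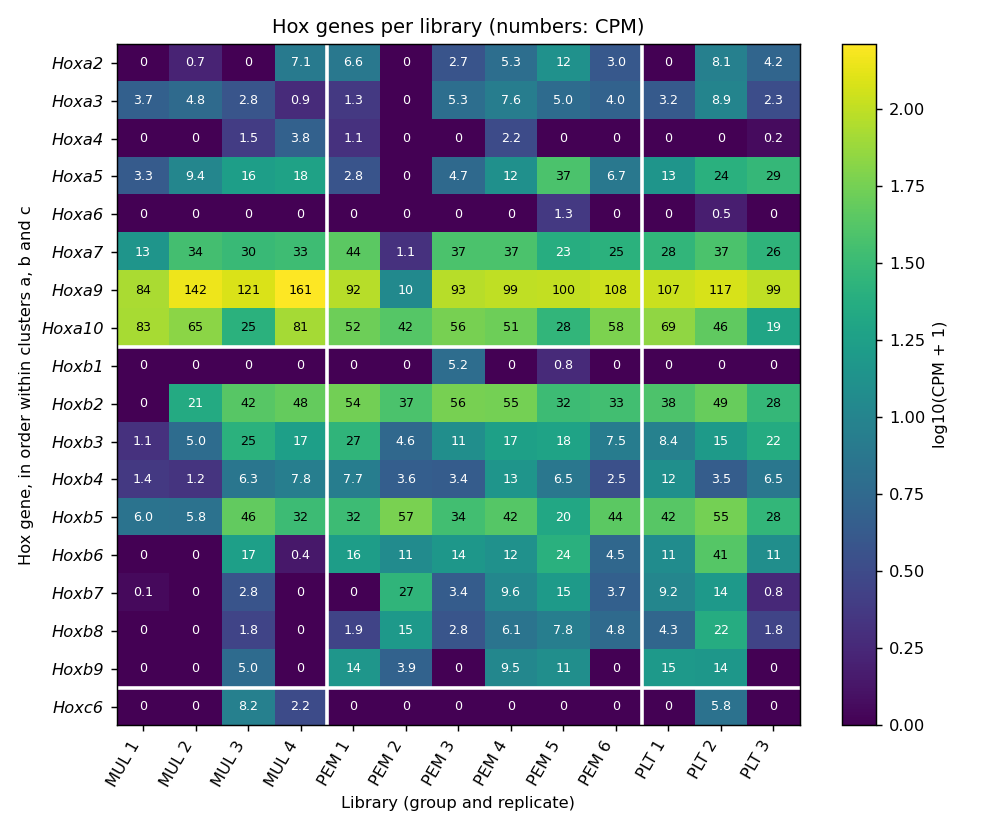
Level of each Hox gene with over 3 counts in at least 2 libraries (rows, cluster order) in the 13 libraries (columns); numbers are CPM and colour is log10(CPM + 1). Hoxa7, Hoxa9 and Hoxa10 are found in every column, PEM-HSC replicate 2 is empty from Hoxa2 to Hoxa5, and MUL-HSC replicates 1, 2 and 4 are nearly empty from Hoxb6 to Hoxb9.

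Clusters c and d gave next to nothing. Hoxc6 was the 1 member with over 3 counts in any library, at 8.25 and 2.20 CPM in MUL-HSC replicates 3 and 4 and 5.76 CPM in PLT-HSC replicate 2, and at 0 in the other libraries, all 6 PEM-HSC libraries among them. Hoxc5 had 4 counts in all and Hoxc13, Hoxd8 and Hoxd9 had 1 count each. In each library the floor of 3 counts is the level up to which a gene at 0 may lie, and it covers counting error only. The members at 0 in every library were Hoxa11, Hoxa13, Hoxb13, Hoxc4, Hoxc8, Hoxc9, Hoxc10, Hoxc11, Hoxc12, Hoxd1, Hoxd3, Hoxd4, Hoxd10, Hoxd11, Hoxd12 and Hoxd13. RNA of genes beside the silent clusters was present: Nfe2, a neighbour of the Hoxc cluster that encodes a factor of platelet formation, was at 1150 ± 273 CPM (SD, n = 4) in MUL-HSC, 1180 ± 132 (SD, n = 6) in PEM-HSC and 907 ± 75.3 (SD, n = 3) in PLT-HSC.

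Levels of different genes were compared per kilobase of exon. Hoxa9 led at 31.8 ± 10.9 CPM per kb (SD, n = 13), followed by Hoxb2 at 23.4 ± 9.67, Hoxb5 at 18 ± 8.61 and Hoxa10 at 16.5 ± 6.43 CPM per kb. Hoxa7 (11.4 ± 4.57), Hoxa5 (7.23 ± 5.92), Hoxb6 (6.34 ± 5.75) and Hoxb3 (3.89 ± 2.29 CPM per kb) followed. Each difference between neighbours in this order was smaller than the SD over libraries of the higher gene. Hoxa9 was above Hoxb2 in 9 of 13 libraries, Hoxb2 above Hoxb5 in 10, Hoxb5 above Hoxa10 in 9, Hoxa10 above Hoxa7 in 8 and Hoxa7 above Hoxa5 in 11. Summed by paralogue number on the same scale, group 9 had the highest median over the libraries (34.3 CPM per kb), followed by group 5 (28.3), group 2 (25.9), group 7 (17.5) and group 10 (16.5 CPM per kb). Groups 6, 3, 4 and 8 had medians of 5.75, 5.29, 2.52 and 1.07 CPM per kb, and groups 11 and 12 of 0. Neighbours in this order overlapped in their ranges.

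Hoxa and Hoxb genes did not hold a fixed balance. Hoxa genes made up 56.8%, 60.4%, 56.7%, 60.3% and 67.1% of summed Hoxa and Hoxb CPM in PEM-HSC replicates 1, 3, 4, 5 and 6, and 61.2%, 53.0% and 65.7% in the PLT-HSC libraries. In PEM-HSC replicate 2 the share was 24.9%. In MUL-HSC it was 95.6%, 88.5%, 57.4% and 74.4%. Replicates 1, 2 and 4 of MUL-HSC were above every restricted library, and replicate 3 was among them. The median over the 13 libraries was 60.4%, or 50.7% when levels were first divided by exon length.

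PEM-HSC replicate 2 was low in part of the Hoxa cluster only. Hoxa2, Hoxa3, Hoxa4, Hoxa5 and Mira were at 0, Hoxa7 at 1.05 CPM and Hoxa9 at 10.1 CPM. In the other 12 libraries Hoxa3 was at 0.870 to 8.88, Hoxa5 at 2.78 to 37.1, Mira at 4.59 to 41.6, Hoxa7 at 13.2 to 43.8 and Hoxa9 at 83.8 to 161 CPM. Hoxa2 (0 to 12.1 CPM) and Hoxa4 (0 to 3.84 CPM) were also at 0 in some of those libraries, so their zeros did not set this library apart. Of the 7 Hoxa genes tested below, 4 were lower there than in every other library, against 0 of 8 Hoxb genes. The library was singled out by these same values, and the share of all genes lowest in it is not given here. The count is therefore a description only. Just 5′ of Hoxa9 the values lay inside the others' ranges: Mir196b was at 0.960 CPM (others 0.746 to 3.82) and Hoxa10 at 41.5 CPM (others 19.0 to 82.7). Outside the cluster Hibadh (374 CPM, others 264 to 409), Tax1bp1 (1020, others 602 to 1370) and Snx10 (363, others 250 to 434) lay inside the others' ranges, and Skap2, beyond its 3′ end, was just below (248, others 256 to 427). Among the Hoxb genes, its Hoxb5 (57.3 CPM) and Hoxb7 (26.7 CPM) were the highest of the 13 libraries, and its Hoxb3 (4.63 CPM) was above MUL-HSC replicate 1 alone. Its library total of 22913695 counts and its 11737 detected genes lay inside the range of the other libraries, and Meis1, at 572 CPM, inside the PEM-HSC range of 353 to 582. Kmt2a, the gene of MLL, was lowest of the 13 libraries there, at 56.1 CPM (others 73.6 to 183). The part of Kmt2a in the Hoxa levels was not tested.

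MUL-HSC replicates 1 and 2 were low in the Hoxb cluster. Against the 11 libraries other than these 2, 5 of the 8 tested Hoxb genes were below every one in replicate 1 and 4 of 8 in replicate 2, against 0 of 7 Hoxa genes in either. Both libraries were singled out by these same values, and the share of all genes that lay below the 11 others is not given here. Their summed Hoxb level was 8.52 and 33.3 CPM against 98.7 to 215 CPM in the 11 others, while their summed Hoxa level was 187 and 257 CPM. Snf8 (34.3 and 39.5 CPM) and Atp5g1 (201 and 205 CPM), genes beside the Hoxb cluster, lay inside the range of the 11 others, and Skap1, next to Hoxb1, was at 0 and 1.04 CPM, where the others ran from 0.0308 to 26.0. The same libraries had the 2 lowest sums of HSC markers without Hoxb5, 1730 and 1890 CPM against 2240 to 3130 CPM. Slamf1, which encodes the sort marker CD150, was at 32.2 and 60.9 CPM there, at 200 and 63.2 CPM in MUL-HSC replicates 3 and 4, and at 109 to 326 CPM in the restricted groups. Cd34, high in multipotent progenitors and low in long-term mouse HSCs, was at 555 and 449 CPM there, at 90.9 and 380 CPM in MUL-HSC replicates 3 and 4, and at 21.7 to 108 CPM in the restricted groups. Mitosis and replication genes summed to 3190 and 2650 CPM there, against 712 to 3250 CPM in the other libraries. The part of these markers in the Hoxb levels was not tested.

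**Figure D3:**
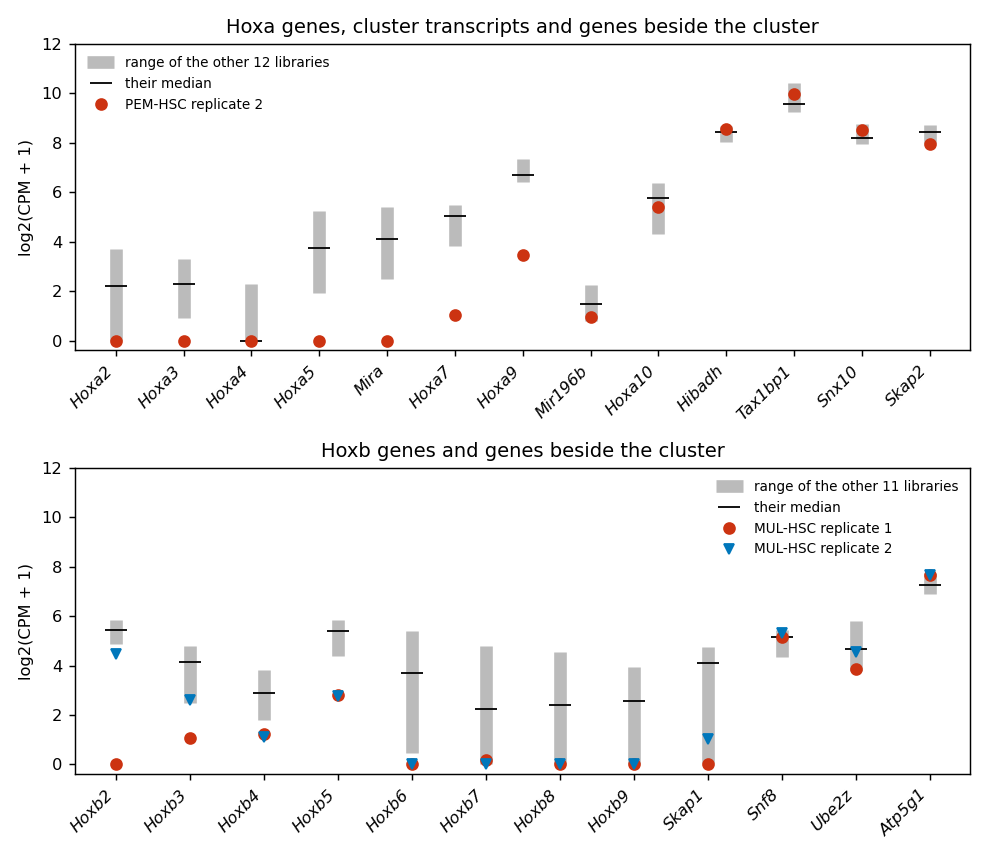
Level as log2(CPM + 1) (y axis) of genes in and beside the Hoxa cluster (top) and the Hoxb cluster (bottom); coloured points are the named libraries, grey bars the range and black lines the median of the other libraries. PEM-HSC replicate 2 lies below the bars at Hoxa3, Hoxa5, Hoxa7 and Hoxa9 and inside them at Hoxa10, and MUL-HSC replicates 1 and 2 lie below them at Hoxb2, Hoxb4, Hoxb5 and Hoxb6.

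Pairs of neighbouring members were compared over the 13 libraries on log2(CPM + 1), with 4 pairs in the family. Hoxa7 and Hoxa9 had Pearson's r = 0.930 (permutation p = 0.0098, adjusted 0.0136) and Spearman's rho = 0.253 (permutation p = 0.405, adjusted 0.540). Without the 2 libraries farthest from the Hoxa7 median, PEM-HSC replicate 2 and MUL-HSC replicate 1, r was -0.012, so the relation rested on those libraries. Hoxa9 and Hoxa10 gave r = 0.132 (permutation p = 0.641, adjusted 0.641) and rho = 0.110 (permutation p = 0.723, adjusted 0.723), and r = -0.101 without PEM-HSC replicate 2 and MUL-HSC replicate 4. Hoxb2 and Hoxb3 gave r = 0.769 (permutation p = 0.00595, adjusted 0.0136) and rho = 0.423 (permutation p = 0.151, adjusted 0.500). Hoxb5 and Hoxb6 gave r = 0.722 (permutation p = 0.0102, adjusted 0.0136) and rho = 0.344 (permutation p = 0.250, adjusted 0.500). Without MUL-HSC replicates 1 and 2 these became 0.211 and 0.089, so both Hoxb relations rested on those libraries. With values centred within groups the 4 coefficients were 0.961, 0.096, 0.752 and 0.531. The points of a pair share their library and depth.

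Differences between groups were tested on 16 members that passed the filter on low counts: 7 Hoxa genes (Hoxa2 to Hoxa5, Hoxa7, Hoxa9, Hoxa10), 8 Hoxb genes (Hoxb2 to Hoxb9) and Hoxc6. The fit was edgeR's quasi-likelihood test over all 12536 genes that passed, with Benjamini-Hochberg adjustment. With a threshold of 0.05 on the adjusted p, no Hox gene was called in any of the 3 comparisons. Among all genes tested, 0.0479% were called for PLT-HSC against MUL-HSC, 0.00798% for PEM-HSC against MUL-HSC and 0% for PLT-HSC against PEM-HSC. At an unadjusted p under 0.05 there was 1 Hox gene of 16 in each comparison, beside 7.37%, 5.93% and 3.73% of all genes. DESeq2 and limma's voom called none either, with 1, 3 and 1 Hox genes at an unadjusted p under 0.05 by DESeq2 and 3, 2 and 1 by voom. A p above the threshold does not show that levels were alike: standard errors on the log2 scale ran from 0.40 for Hoxa10 in PEM-HSC against MUL-HSC to 3.37 for Hoxa4 in PLT-HSC against MUL-HSC.

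**Figure D4:**
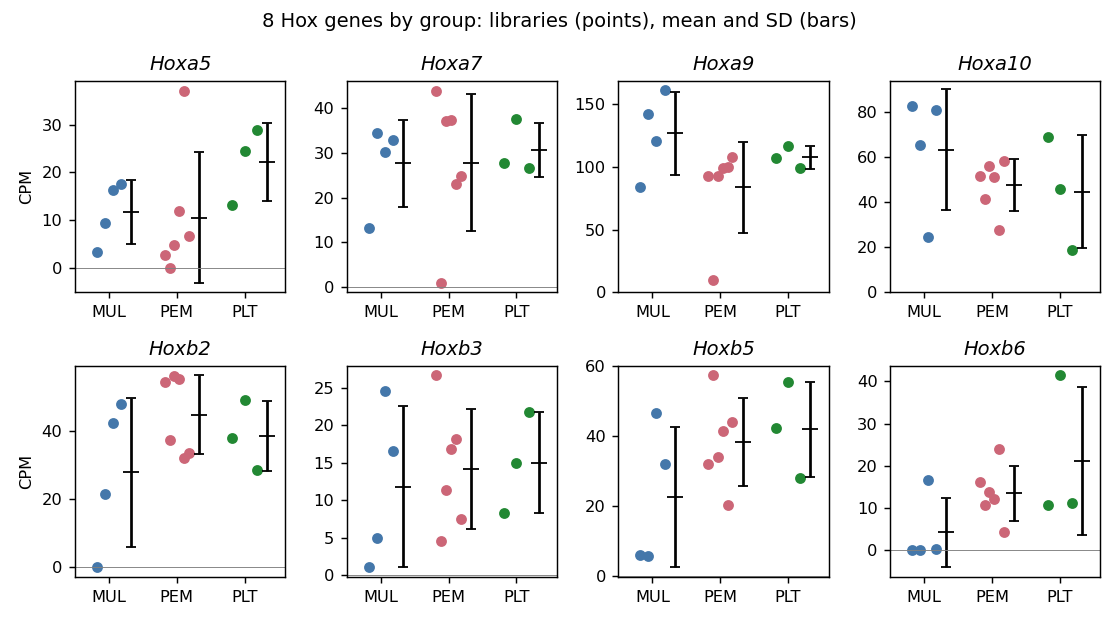
Level in CPM (y axis) of the 8 Hox genes with a mean of at least 10 CPM in the 3 groups (x axis); points are libraries, and bars give the mean and SD of the libraries (4 of MUL-HSC, 6 of PEM-HSC, 3 of PLT-HSC). In all 8 panels the ranges of the groups overlap.

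In PLT-HSC against MUL-HSC the largest positive fold changes were those of 5′ Hoxb genes, none of them called. Hoxb8 was at 0, 0, 1.83 and 0 CPM in MUL-HSC and 4.31, 22.4 and 1.82 CPM in PLT-HSC, which gave 4.49 on the log2 scale (SE 2.01, edgeR adjusted p = 0.647). PLT-HSC replicate 3 lay just under MUL-HSC replicate 3. Hoxb7 was at 0.135, 0, 2.75 and 0 CPM in MUL-HSC and 9.24, 14.5 and 0.802 CPM in PLT-HSC, with 3.59 (SE 2.06, edgeR adjusted p = 0.799). For Hoxb6 and Hoxb5, whose levels are given above, the log2 fold changes were 2.40 (SE 1.58, edgeR adjusted p = 0.876) and 0.95 (SE 0.63, edgeR adjusted p = 0.878). The 16 members ran from -4.63 (Hoxa4) to 4.49, with 12 of 16 positive (52.4% of all genes) and a median of 0.75 (0.04 over all genes). No member's CPM failed to overlap between these groups, where 3.75% of all genes were wholly higher and 3.04% wholly lower. Without MUL-HSC replicate 3 the log2 fold changes of Hoxb8 and Hoxb6 were 11.13 (edgeR adjusted p = 0.0926) and 7.31 (edgeR adjusted p = 0.0946), and that of Hoxb7 7.52. Hoxb8 was then at 0 in all MUL-HSC libraries left, so the size of 11.13 was set by how the fit treats zeros and is not a measured fold. Without PLT-HSC replicate 2 that of Hoxb8 was 2.72. With MUL-HSC replicates 1 and 2 left out the members' median was 0.10, and Hoxb5, Hoxb6, Hoxb7 and Hoxb8 stood at 0.16, 1.39, 2.66 and 3.49.

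In PEM-HSC against MUL-HSC, Hoxc6 and the same 5′ Hoxb genes had the smallest p. Hoxc6 was at 0 in all 6 PEM-HSC libraries, at least 108-fold lower than the pooled 2.14 CPM of MUL-HSC when 3 counts over the whole PEM-HSC group are taken as the floor. Without MUL-HSC replicate 3 the pooled level was 1.02 CPM and the bound 51.4-fold. Both bounds cover counting error only and not the spread between libraries. Of the 4 MUL-HSC libraries 2 were also at 0, and the edgeR adjusted p was 0.727. Hoxb8 was at 1.86, 14.6, 2.82, 6.06, 7.80 and 4.75 CPM in PEM-HSC (lowest 1.86, median 5.40), which gave 3.79 on the log2 scale (SE 1.84, edgeR adjusted p = 0.862). It was the 1 member whose groups did not overlap, by a gap of 1.83 to 1.86 CPM, where 0.862% of all genes were wholly higher in PEM-HSC. Hoxb7, at 0 to 26.7 CPM in PEM-HSC, gave 3.77 (SE 1.95, edgeR adjusted p = 0.933). Without MUL-HSC replicate 3 the log2 fold changes of Hoxb8 and Hoxb7 were 10.45 (edgeR adjusted p = 0.159) and 7.71 (edgeR adjusted p = 0.520). Here too Hoxb8 was at 0 in all MUL-HSC libraries left, so 10.45 is not a measured fold. Hoxa9 was lower in PEM-HSC by mean, 83.6 ± 36.5 CPM (SD, n = 6) against 127 ± 33.2 (SD, n = 4), which gave -0.62 on the log2 scale (SE 0.42, edgeR adjusted p = 0.999), and -0.39 without PEM-HSC replicate 2. The members ran from -9.12 to 3.79, with 10 of 16 positive (50.7% of all genes) and a median of 0.43 (0.01 over all genes). That median was 0.58 without PEM-HSC replicate 2 and -0.01 without MUL-HSC replicates 1 and 2. This comparison and the one before it share the MUL-HSC libraries.

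In PLT-HSC against PEM-HSC no member had an edgeR adjusted p under 1. Hoxc6 was at least 94.5-fold higher in PLT-HSC against the same floor, which rested on PLT-HSC replicate 2 alone, and without that library both groups were at 0. Hoxa4 was at 0, 0 and 0.154 CPM in PLT-HSC, against 0 to 2.19 CPM in PEM-HSC, which gave -3.37 on the log2 scale (SE 3.06). Hoxa5 gave 1.07 (SE 1.14) and Hoxa9 0.39 (SE 0.45), or 0.81 and 0.16 without PEM-HSC replicate 2. Without PEM-HSC replicate 5, the library with the most Hoxa5 RNA, Hoxa5 gave 2.11. Hoxa4 gave -2.07 without PEM-HSC replicate 4 and -6.82 without PLT-HSC replicate 3. In the latter fit all PLT-HSC libraries left were at 0 for Hoxa4, so -6.82 is not a measured fold. Their median was 0.21 and 11 of 16 were positive (51.5% of all genes, median 0.02). Leaving out PLT-HSC replicate 2 turned the median to -0.15, and 5 of 17 were positive. No member's CPM failed to overlap, where 1.1% of all genes were wholly higher and 1.06% wholly lower.

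**Figure D5:**
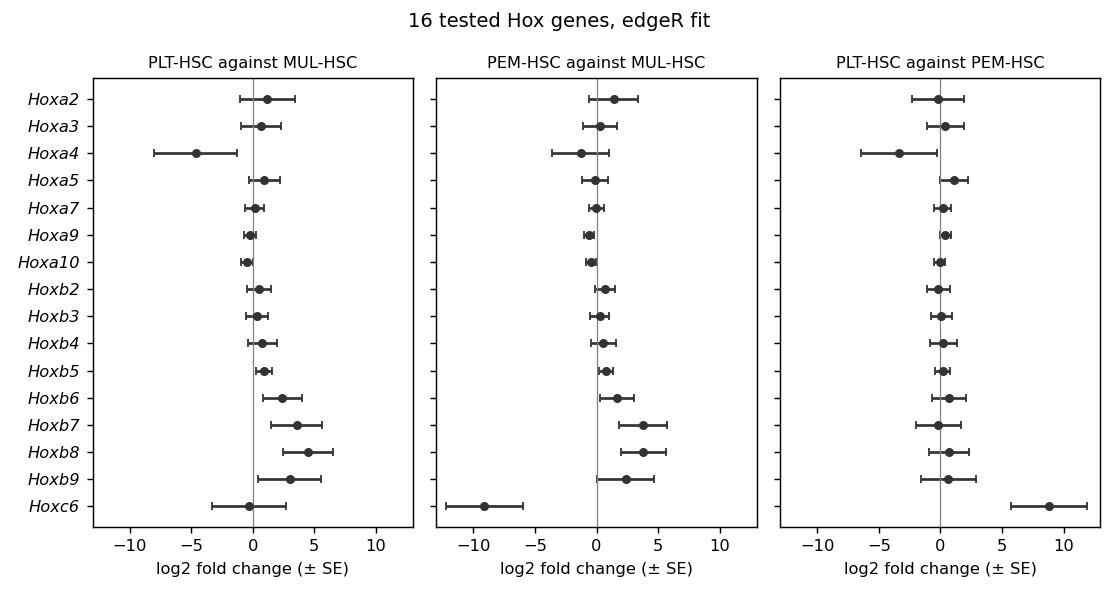
Log2 fold change (x axis, points) with its standard error (bars) of the 16 tested Hox genes (rows) in the 3 comparisons, from the edgeR fit. No gene was called; values run from -9.12 (Hoxc6, PEM-HSC against MUL-HSC, all PEM-HSC libraries at 0) to 8.83 (Hoxc6, PLT-HSC against PEM-HSC).

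The partners and regulators of Hox genes were read from the same fit. Of the 7 tested TALE cofactors, the homeodomain partners of Hox proteins, none was called. Meis1 was at 285, 304, 341 and 369 CPM in MUL-HSC, 353 to 582 CPM in PEM-HSC, and PLT-HSC values were 690, 362 and 404 CPM. It stood 0.58 above MUL-HSC on the log2 scale in PLT-HSC (SE 0.24, edgeR adjusted p = 0.646) and 0.46 above in PEM-HSC (SE 0.21, edgeR adjusted p = 0.820). Summed levels of the cofactors were 441 to 557 CPM in MUL-HSC, 599 to 816 CPM in PEM-HSC and 506 to 836 CPM in PLT-HSC. The cofactors' median log2 fold changes against MUL-HSC were 0.07 in PLT-HSC and -0.09 in PEM-HSC, near those of all genes.

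Of 18 trithorax-type activators, the MLL complex and its elongation partners, none was called. Mllt3, which encodes the elongation partner AF9 and sustains HSCs, was at 156, 154, 310 and 159 CPM in MUL-HSC, 311 to 559 CPM in PEM-HSC, and PLT-HSC values were 654, 721 and 410 CPM. All restricted libraries lay above all MUL-HSC libraries, by a gap of 310 to 311 CPM, and its log2 fold changes were 1.63 (SE 0.31, edgeR adjusted p = 0.0599) in PLT-HSC and 1.11 (SE 0.27, edgeR adjusted p = 0.510) in PEM-HSC. Of all genes, 3.75% were wholly higher in PLT-HSC than in MUL-HSC, and 0.862% wholly higher in PEM-HSC. Psip1, which encodes the chromatin tether of the MLL complex, was at 292 ± 41.9 CPM (SD, n = 4), 231 ± 31.9 (SD, n = 6) and 241 ± 51.0 (SD, n = 3) in MUL-HSC, PEM-HSC and PLT-HSC in turn. The list's summed level was 1130 to 1210 CPM in MUL-HSC, 1220 to 1480 CPM in PEM-HSC and 1560 to 1870 CPM in PLT-HSC, Mllt3 included, so the sums of the 3 groups did not overlap. That separation rested on Mllt3, and with it taken out the sums of the groups overlapped. In PLT-HSC replicate 2 Mllt3 made up 721 of 1560 CPM, and in MUL-HSC replicate 4 it made up 159 of 1160 CPM. The list's median log2 fold change was 0.49 in PLT-HSC and 0.18 in PEM-HSC against MUL-HSC, with 14 and 13 of 18 positive, and 0.40 in PLT-HSC against PEM-HSC, with 15 of 18 positive.

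None of 25 genes of the Polycomb list was called, and their summed levels were 2460 to 2790 CPM in MUL-HSC, 2330 to 2710 CPM in PEM-HSC and 2390 to 2540 CPM in PLT-HSC. The list includes Kdm6a and Kdm6b, demethylase genes whose products oppose Polycomb. Rbbp7 and Rbbp4, histone-binding subunits of Polycomb and other complexes, were the most abundant, at 1440 ± 164, 1230 ± 109 and 1130 ± 163 CPM and at 186 ± 46.8, 214 ± 49.3 and 230 ± 60.5 CPM (SD, n = 4, 6 and 3). Of the 18 Cdx and retinoid genes, which act upstream of Hox genes in embryos, Cdx1, Cdx2 and Cdx4 had no count and 8 were tested. The list's summed level was 100 to 266 CPM in MUL-HSC, 245 to 423 CPM in PEM-HSC and 455 to 567 CPM in PLT-HSC. Rdh10, an enzyme of retinoic acid synthesis, was higher in PLT-HSC than in MUL-HSC, at 57.7 to 186 CPM against 0.428 to 4.62 CPM (log2 fold change 5.83, SE 0.84, edgeR adjusted p = 0.0189), and was the 1 of the 8 called in any comparison. It was called under 16 of 24 alternatives, at log2 fold changes of 5.24 to 6.47 over all 24. Its adjusted p was above 0.05 with limma voom (0.358), with spike-in scaling (0.0684) and in a fit of the 2 groups alone (0.0782). The same held without MUL-HSC replicate 1 (0.0939), replicate 2 (0.0828) or both (0.331), and without PLT-HSC replicate 1 (0.0763) or 2 (0.0727). Genes beside the 4 clusters gave 0 calls among 18 tested, with median log2 fold changes of -0.13, -0.14 and 0.03 in the 3 comparisons. The 2 tested noncoding rows, Mira and Mir196b, were not called either.

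Of 14 tested genes of the programme that HOXA9 and MEIS1 drive in leukaemia, 1 was called. Mef2c, a transcription factor gene of that programme, was at 128 to 188 CPM in MUL-HSC, 171 to 312 CPM in PEM-HSC and 341 to 435 CPM in PLT-HSC, and rose by 1.33 on the log2 scale in PLT-HSC against MUL-HSC (SE 0.23, edgeR adjusted p = 0.0487). The list's median there was 0.21, with 8 of 14 positive. Hoxb5 was the 1 Hox gene among the 10 HSC markers, of which Ctnnal1 was called in PLT-HSC against MUL-HSC (10.5 ± 5.27 CPM, n = 4, against 81.1 ± 22.0 CPM, n = 3; log2 fold change 2.93, SE 0.50, edgeR adjusted p = 0.0487). Both calls lay at the threshold: leaving out 1 library at a time kept that of Mef2c in 3 of 13 fits and that of Ctnnal1 in 2 of 13 (8 and 6 of all 24 alternatives, with adjusted p up to 1 and 0.932), while their log2 fold changes stayed at 1.20 to 1.48 and 2.66 to 3.18. None of the 28 mitosis and replication genes was called, and Mcm6 and Pcna, the most abundant of them, were at 403 ± 141 and 321 ± 159 CPM (SD, n = 4) in MUL-HSC, 277 ± 165 and 254 ± 65.1 CPM (SD, n = 6) in PEM-HSC and 262 ± 135 and 204 ± 105 CPM (SD, n = 3) in PLT-HSC. The list's median log2 fold changes were -0.69 in PLT-HSC and -0.18 in PEM-HSC against MUL-HSC, with 5 and 11 of 28 positive, and -0.31 in PLT-HSC against PEM-HSC, with 6 of 28 positive.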

How the data were processed

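The libraries were made from polyadenylated RNA by a Smart-seq+ protocol and Nextera XT, per the labels' protocols. The submitters' processing notes name STAR and featureCounts, besides Trimmomatic and FastQC, and the build mm9. Versions, annotation and strand mode are not given in the sources used here. Read counts per gene symbol, as whole numbers that had not been normalized, were deposited by the authors. No molecular identifiers are described, so counts include PCR copies, and floors cover counting error only. Library totals and tests exclude the 92 ERCC spike-in rows.

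CPM were computed from the deposited counts over each library's total. Counts were tested in R 4.3.3 with edgeR 4.0.16 (filterByExpr, TMM, robust quasi-likelihood fit of all 13 libraries with a term per group, Benjamini-Hochberg over 12536 genes), and the fit was tested on simulated data. DESeq2 1.42.0 and limma 3.58.1 (voom) were among 24 alternatives. Correlations used 100000 permutations (scipy 1.17.1). Exon lengths came from protein-coding transcripts of GENCODE M21 and sequences from RefSeq, both of a later build than mm9.

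The members and all lists were chosen with earlier results of these data known. Levels are given for members with a mean of at least 10 CPM and for libraries where others pass it; fold changes for the 4 members with the smallest p per comparison; and from each other list any called gene, or else the 2 most abundant. Genes named beside the libraries that stood apart, and the members named as a range's ends, were chosen after their values were seen. No protein sequences were used here, and some genes that the rule would name are not reported here. Replicates of a group were never alike within sampling noise (lowest chi-square per degree of freedom 163).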

Additional observations from a re-analysis of the deposited data

Results flagged for a closer look

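In 20 groups of values examined (10 measures in MUL-HSC and PEM-HSC), 4 had a library far from the others by Dixon's criterion at 95%. Chance meets it in about 1 of 20 groups when values are normally distributed and groups independent. These CPM include values of 0 and related measures, so 4 of 20 cannot be set against that rate. Hoxa9 in PEM-HSC was lowest in replicate 2, at 10.1 CPM with the next library at 92.4 CPM. Summed Hoxa RNA, of which Hoxa9 is a part, was lowest in the same library, at 52.7 CPM with the next at 199 CPM. Hoxa5 in PEM-HSC was highest in replicate 5, at 37.1 CPM with the next at 11.9 CPM. Hoxb6 in MUL-HSC was highest in replicate 3, at 16.6 CPM with the next at 0.387 CPM.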

How the results depend on the processing

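No Hox gene was called in any of the 3 comparisons under any of the 24 alternatives, which changed the scaling, the filter, the tool, the covariates or the libraries. The lowest adjusted p of a member was 0.0926 (Hoxb8, PLT-HSC against MUL-HSC, without MUL-HSC replicate 3). Leaving out 1 library at a time, the members' median log2 fold change ran from 0.21 to 1.13 in PLT-HSC against MUL-HSC, from 0.21 to 0.97 in PEM-HSC against MUL-HSC and from -0.15 to 0.37 in PLT-HSC against PEM-HSC. Scaling by spike-in reads moved the median of all genes to 0.05, -0.10 and 0.13 in the 3 comparisons and the members' median to 0.40, 0.29 and 0.10.

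Same-numbered libraries of different groups did not deviate together (10 pairs, correlations -0.132 to 0.048). Pairs with different numbers ran from -0.094 to 0.15, and whether a number marks a shared preparation was not tested. With the replicate number as a block, 0 Hox genes were called, the members' medians were 1.19, 0.76 and 0.37, and 2, 0 and 0 of all genes were called, against 6, 1 and 0 without it.

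Without the 2 farthest libraries the correlation of Hoxa7 with Hoxa9 turned to -0.012, that of Hoxa9 with Hoxa10 to -0.101, and those of Hoxb2 with Hoxb3 and Hoxb5 with Hoxb6 shrank to 0.211 and 0.089; centring within groups left the last at 0.531 (adjusted p = 0.0819). The number of genes called overall moved with the tool: DESeq2 called 249, 175 and 93 genes in the 3 comparisons. The floor of 3 counts, 0.0725 to 0.183 CPM by library, was a chosen cut-off for counting error. Lower levels were recorded, such as Hoxd8 at 0.0339 CPM in PLT-HSC replicate 2.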
